A study of Mus musculus with 10 samples.

Results

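Platelet RNA from 5 P7 and 5 adult mouse libraries was examined for 9 genes that add or remove sialic acid and galactose on glycoproteins, out of 53819 gene symbols with a row in each library. The members were taken by symbol and were the sialyltransferase genes St3gal1, St3gal2, St3gal4, St3gal6 and St6gal1, the galactosyltransferase gene B4galt1, the sialidase genes Neu1 and Neu3, and Slc35a1, the gene of the CMP-sialic acid transporter. The groups differ by age only as far as the labels go. P7 is read here as postnatal day 7, the sources used here do not give the adults' age, or strain, sex, genotype or any pooling of animals. The P7 libraries are lettered A, B, C, E and I, and the adult libraries A, B, C, G and H. Nothing says that they came from separate animals, and the p-values below therefore measure spread between libraries that may be technical.

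Glycoproteins of the platelet surface carry glycans that usually end in galactose capped by sialic acid. B4galt1 adds galactose in the Golgi, Slc35a1 brings in the activated sialic acid, and the sialyltransferases attach it. Sialidases take it off again, and platelets with exposed galactose are bound by the Ashwell-Morell receptor of the liver and leave the circulation. Loss of St3gal4 or of the sialic acid transporter lowers platelet number. RNA levels say nothing direct about glycans on the surface.

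The P7 libraries held 19431863 to 25029931 counts each, and the adult libraries 19541997 to 23291269. Where a gene had 0 counts, the level could still be as high as 0.120 to 0.154 CPM (counts scaled to library size) at P7 and 0.129 to 0.154 CPM in adults, which is 3 counts of the total and covers counting error only. The 10 platelet markers were counted in both groups, with sums of 50500 to 75130 CPM at P7 and 51260 to 80970 CPM in adults, so the labelled cell type carried its defining transcripts. Among markers of other cells, 13 of 13 erythroid genes had counts and summed to 965.5 to 2568 CPM at P7 and 574.7 to 1784 CPM in adults. The sums were 6.52 to 21.0 and 2.697 to 5.06 CPM for 7 of 7 B cell genes, and 6.44 to 9.81 and 9.77 to 18.7 CPM for 8 of 8 T and NK cell genes. For 10 of 11 neutrophil genes they were 2.45 to 6.30 and 1.09 to 1.63 CPM, with Cxcr2 at 0 in each library. Hepatocyte markers, 4 of 7 with counts, summed to 6.92 to 11.8 and 19.6 to 34.3 CPM, mostly Afp, with Alb, Apob and Serpina1a at 0. For 8 monocyte genes the sums were 2241 to 3456 and 2911 to 6085 CPM, nearly all of it Lyz2, and for 7 endothelial genes 2497 to 5545 and 2831 to 3753 CPM, mostly Vwf and Pecam1, which platelets also express. The part of other cells in the results below was not tested.

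The members spanned a wide range of levels in both groups. Levels are CPM scaled by trimmed mean of M-values (TMM) factors, and fold changes are P7 over adult. Of the 9 members, 7 passed the filter on low counts and were tested, each with counts in both groups. With edgeR's quasi-likelihood test and Benjamini-Hochberg adjustment over 8198 genes, 1 of these 7 passed an adjusted p of 0.05, St3gal6, which was lower at P7, and 0 were higher. That is 14.3% of the tested members, where 27.7% of all genes tested were called, 13.8% higher and 13.9% lower at P7. St3gal6 was also the only tested member whose groups did not overlap, against 19.8% of all genes tested. The median log2 fold change was -0.12 over the 7 tested members and 0.05 over all genes tested. In bulk RNA, fewer cells of a type and less RNA per cell cannot be told apart.

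St3gal1, which caps galactose on core O-glycans, was the most abundant member. Its level was 102.8, 120.1, 141.5, 124.7 and 140.4 CPM in P7 A, B, C, E and I. In adult A, B, C, G and H it was 127.9, 125.8, 81.9, 140.8 and 118.4 CPM. Adult C was the lowest of the 10 libraries, and the other adult libraries lay inside the P7 range. Means were 125.9 ± 16.01 CPM at P7 and 118.9 ± 22.2 CPM in adult libraries (SD, n = 5 each), for a log2 fold change of 0.08 ± 0.16 (SE, edgeR adjusted p = 0.74). The 95% interval ran from -0.27 to 0.43, or from 0.831-fold to 1.35-fold, the narrowest of the tested members.

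St3gal2, a close relative of St3gal1 with similar acceptors, was at 17.1, 20.8, 20.7, 14.3 and 10.9 CPM in P7 A, B, C, E and I. In adult A, B, C, G and H it was at 35.6, 23.98, 12.3, 26.3 and 20.1 CPM. The adult libraries reached higher, but adult C and H lay within the P7 range. The log2 fold change was -0.50 ± 0.26 (SE, 95% interval -1.05 to 0.06) and did not pass the test (edgeR adjusted p = 0.18). Without adult C it was -0.67 and passed (edgeR adjusted p = 0.0485), and with the GC trend removed it was -0.78 and also passed (edgeR adjusted p = 0.0385). It did not pass in the other 18 of 20 settings. The weakest value was -0.21, in the libraries of letters A to C with the letter as a block (edgeR adjusted p = 0.72).

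St3gal4, the sialyltransferase whose loss shortens platelet survival in mice, was rare. Counts per library were 19 to 52 at P7 and 33 to 64 in adults. Levels were 1.33, 0.982, 2.09, 1.48 and 2.33 CPM in the P7 libraries in letter order, and then 1.57, 2.67, 3.12, 1.71 and 2.12 CPM in adult A, B, C, G and H. P7 A, B and E lay below all adult libraries, while P7 C and I lay among them. The log2 fold change was -0.44 ± 0.33 (SE, edgeR adjusted p = 0.34), and its 95% interval of -1.14 to 0.25 spans a fold of 0.453 to 1.19. A non-coding gene on the other strand, 4930581F22Rik, shares 412 exon bases with St3gal4 in GENCODE M21 and had 948 counts at P7 and 2269 in adults, and without strand reads from this stretch cannot be told apart.

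St3gal6, which sialylates galactose at the ends of glycans and takes part in making selectin ligands, was the member that passed. Its level was 1.85, 1.14, 1.25, 1.44 and 2.05 CPM in P7 A, B, C, E and I, from 22 to 46 counts. In adult A, B, C, G and H it was 3.06, 2.75, 3.95, 2.14 and 2.29 CPM, from 40 to 81 counts. All adult libraries lay above all P7 libraries, with adult G at 2.14 CPM just above P7 I at 2.05 CPM. Means were 1.55 ± 0.394 CPM at P7 and 2.84 ± 0.719 CPM in adult libraries (SD, n = 5 each), and the log2 fold change was -0.87 ± 0.29 (SE, 95% interval -1.50 to -0.25, edgeR adjusted p = 0.0373).

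The call on St3gal6 was lost in 11 of 20 other settings, with adjusted p-values over all settings of 0.0143 to 0.10 in the tools run and the same direction in each. Leaving out P7 B, C or E or adult A, B or C ended the call, at log2 fold changes of -0.90 to -0.73. Its transcript GC content was 43.4%, in the fifth of tested genes with the lowest GC, whose median log2 fold change was -0.28, and with the GC trend removed St3gal6 was at -0.68 and did not pass (edgeR adjusted p = 0.10). Exons of St3gal6 share 1603 bases with Dcbld2 on the other strand, a gene with 35 counts at P7 and 8 in adults. The summed hepatocyte markers given above were also lower in all P7 than in all adult libraries, and those of T and NK cells nearly so. The hepatocyte sum was carried by Afp, with Alb, Apob and Serpina1a at 0 in each library. Trf of the same list stood at 0.878 to 1.77 CPM at P7 and 0.146 to 1.32 CPM in adults. The part of other cells in the value of St3gal6 was not tested.

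St6gal1, which attaches sialic acid to galactose in another linkage and is abundant in liver and B cells, was close to absent. It had 5 counts in P7 C, 1 in P7 E, 4 in adult A and 9 in adult B, and 0 in the other 6 libraries. It did not pass the filter, and no fold is given. The highest level, 0.387 CPM in adult B, was a small part of that of St3gal1 in any library.

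**Figure D1:**
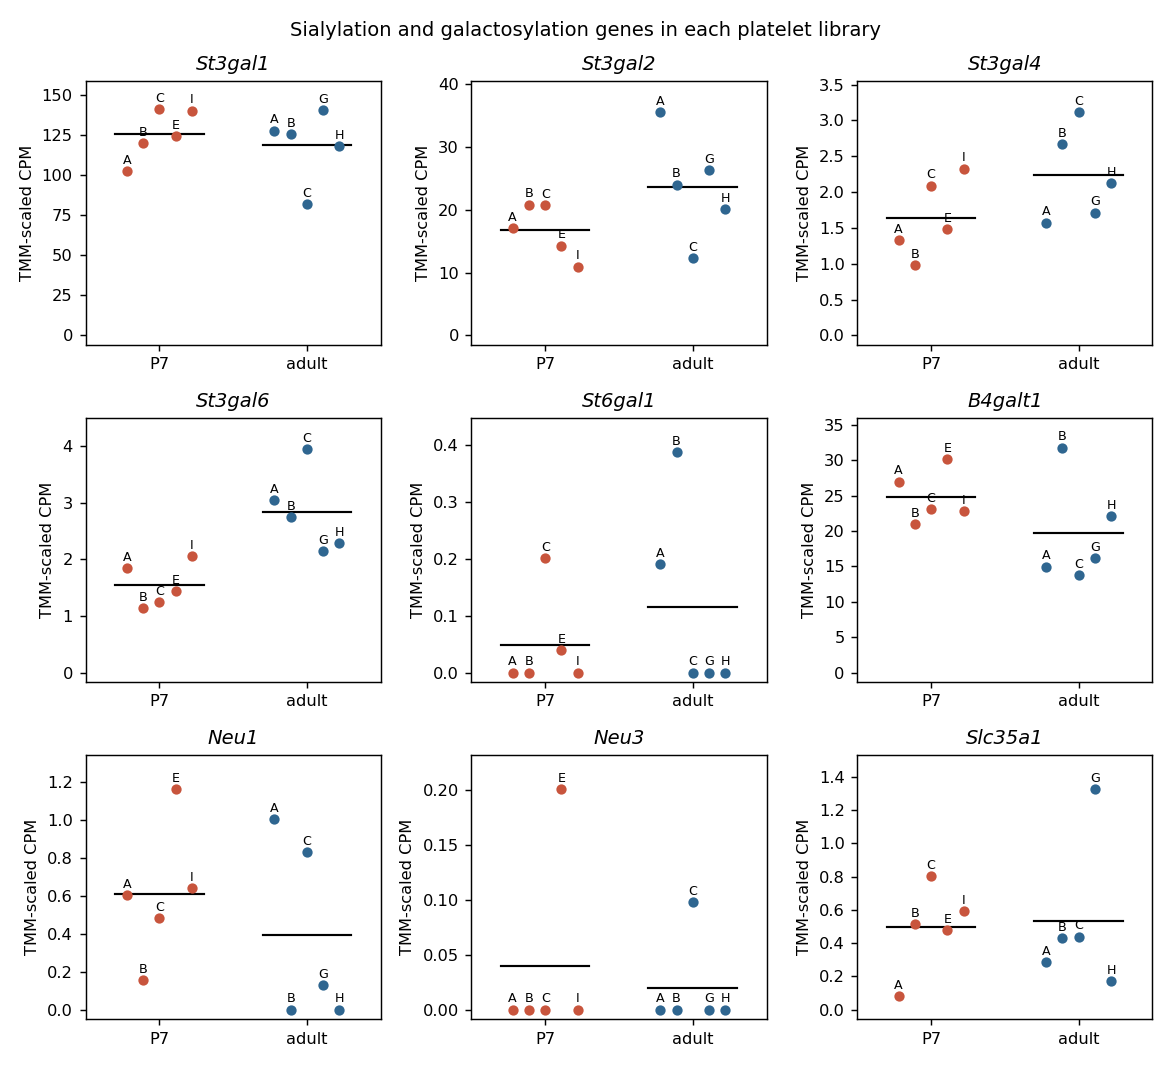
Each panel plots 1 member, with the TMM-scaled CPM of each library (points, labelled by replicate letter) on a linear axis for P7 and adult platelets, and a line at the mean of 5 libraries. The groups separate for St3gal6 and overlap for the other members, and Neu3 and St6gal1 are at 0 in most libraries.

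B4galt1, the galactosyltransferase that makes the acceptor for sialic acid on N-glycans, was at 27.0, 21.0, 23.1, 30.2 and 22.8 CPM in P7 A, B, C, E and I. In adult A, B, C, G and H it was at 14.99, 31.8, 13.8, 16.2 and 22.1 CPM. Adult A, C and G lay below all P7 libraries, but adult B was the highest of all 10. The mean was 24.8 ± 3.71 CPM at P7 and 19.8 ± 7.45 CPM in adult libraries (SD, n = 5 each). The log2 fold change of 0.33 ± 0.23 (SE, 95% interval -0.16 to 0.82) did not pass the test (edgeR adjusted p = 0.32), and without adult B it was 0.55 and still did not pass (edgeR adjusted p = 0.0656).

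Neu1, the lysosomal sialidase that can move to the platelet surface, was counted in each P7 library and in 3 of 5 adult libraries. Levels were 0.604, 0.155, 0.482, 1.16 and 0.639 CPM in P7 A, B, C, E and I. Adult A, C and G had 1.00, 0.829 and 0.128 CPM, and adult B and H had 0 counts, which allows up to 0.129 and 0.172 CPM on the same TMM scale. Both groups thus held libraries near 1 CPM and libraries near the limit of detection. The log2 fold change of 0.64 ± 0.89 (SE, edgeR adjusted p = 0.63) has a 95% interval of -1.26 to 2.53, or from 0.417-fold to 5.79-fold, so changes of that size in either direction remain compatible with the counts.

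Neu3, the sialidase of the plasma membrane, had 5 counts in P7 E and 2 in adult C, and 0 in the other 8 libraries. It did not pass the filter, and no fold is given.

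Slc35a1, the transporter without which sialic acid cannot reach the Golgi enzymes, had few counts in a library, 2 to 20 at P7 and 3 to 31 in adults. Levels were 0.0805, 0.517, 0.804, 0.480 and 0.593 CPM in the P7 libraries in letter order, and then 0.286, 0.430, 0.439, 1.33 and 0.172 CPM in adult A, B, C, G and H. The lowest library was P7 A and the highest adult G, and the rest were intermixed. The log2 fold change was -0.12 ± 0.64 (SE, 95% interval -1.48 to 1.25, edgeR adjusted p = 0.92). Without adult G it was 0.52 (edgeR adjusted p = 0.60), so its direction rests on that library, and without P7 A it was 0.15 (edgeR adjusted p = 0.88).

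**Figure D2:**
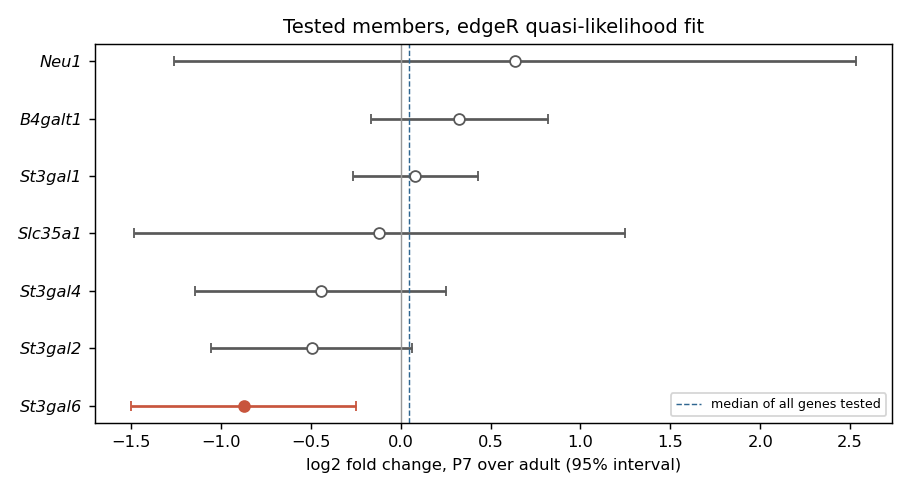
Log2 fold changes of the 7 tested members, P7 over adult, with 95% intervals from edgeR's quasi-likelihood fit, and a dashed line at the median of all genes tested. The filled point is St3gal6, the member that passed, and the intervals of Neu1 and Slc35a1 are several times as wide as that of St3gal1.

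For the 7 tested members the coefficient of variation between libraries was larger, in both groups, than that of counting alone, which takes no account of amplification. For St3gal1 the coefficient of variation was 12.7% at P7 and 18.7% in adults, where counting alone gives 1.85% and 1.99%. For B4galt1 it was 14.96% and 37.6% against 4.15% and 4.88%. For St3gal6, at 25.5% and 25.3%, counting alone gives 16.7% and 12.9%. For Slc35a1 the values were 53.2% and 86.4%, where counting alone gives 29.6% and 29.1%.

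Levels of different genes were compared per kilobase of exon, with the union of exons in GENCODE M21 as length. At P7 the order was St3gal1, B4galt1, St3gal2, St3gal4, St3gal6, Slc35a1 and Neu1. Mean levels were 18.4 ± 2.33, 5.86 ± 0.876, 3.33 ± 0.843, 0.562 ± 0.190, 0.2504 ± 0.0638, 0.216 ± 0.115 and 0.163 ± 0.0972 CPM per kb, in that order (SD, n = 5). Each of the first 4 lay above the next gene in 5 of 5 P7 libraries with no overlap of ranges, while St3gal6, Slc35a1 and Neu1 overlapped. In adults St3gal1 was again the highest, at 17.4 ± 3.25 CPM per kb (SD, n = 5). St3gal2 and B4galt1 followed at 4.69 ± 1.69 and 4.67 ± 1.76 CPM per kb (SD, n = 5) with St3gal2 the higher in 2 of 5 adult libraries, so these neighbours cannot be ordered. Adult St3gal4 and St3gal6 stood at 0.766 ± 0.222 and 0.460 ± 0.117 CPM per kb (SD, n = 5), with St3gal4 higher in 5 of 5 libraries though the ranges overlap. Over all libraries the level per kb of St3gal1 exceeded that of 87.1% of 8028 tested genes with a length, and those of B4galt1 and St3gal2 exceeded 75.2% and 71.6%. The shares were 41.1% for St3gal4, 28.2% for St3gal6, 18.8% for Slc35a1 and 9.57% for Neu1.

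Within libraries, St3gal1 held most of the summed level per kb of the 4 tested St3gal members. Its share was 78.4, 79.0, 80.4, 83.6 and 86.1% in P7 A, B, C, E and I. It was 69.8, 75.0, 74.3, 77.0 and 77.3% in adult A, B, C, G and H. All P7 libraries lay above all adult libraries, with means of 81.5 ± 3.27% and 74.7 ± 3.02% (SD, n = 5 each). This share does not depend on the scaling between libraries. It was chosen after the values were seen and is given with no test. The sum leaves out St3gal3 and St3gal5, which were tested but are not members. St3gal5 stood at 28.9 ± 1.92 CPM per kb at P7 and 21.2 ± 12.8 CPM per kb in adults (SD, n = 5 each). Both means were above those of St3gal1, so the share does not hold for all St3gal genes. St3gal3 stood at 0.295 and 0.351 CPM per kb. B4galt1 per kb stood at 1.2 to 2.51 times St3gal2 at P7 and at 0.502 to 1.58 times in adults, and these ranges overlap.

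**Figure D3:**
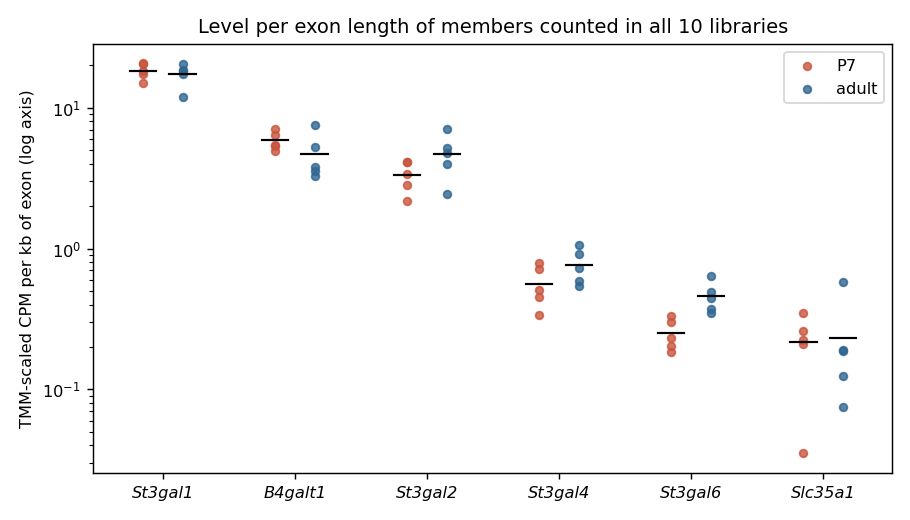
TMM-scaled CPM per kb of exon on a log axis for the 6 members counted in all 10 libraries, with a point per library and a line at each group mean. St3gal1 stands above B4galt1 and St3gal2 in both groups, and St3gal4, St3gal6 and Slc35a1 stand lower, at 1.07 CPM per kb or less in each library.

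Beside the members, 93 genes of the same pathway in 7 lists were read from the same fit. Of these 47 were tested, and 11 were higher and 6 lower at P7, 36.2% of those tested against 27.7% of all genes tested. Their median log2 fold change was 0.19. With the GC trend removed, 9 of the 47 were called higher and 1 lower, against 923 higher and 1131 lower of 8198 genes tested. The share of called genes above that of all genes tested thus depended on the setting. No list was tested as a set. Genes were named by rank of p within each list, and Glb1, Siae, Gp1ba, St3gal3, St3gal5, Gne, Itgb2, Itgam, Asgr1 and Asgr2 were named for their role after their values were seen.

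**Figure D4:**
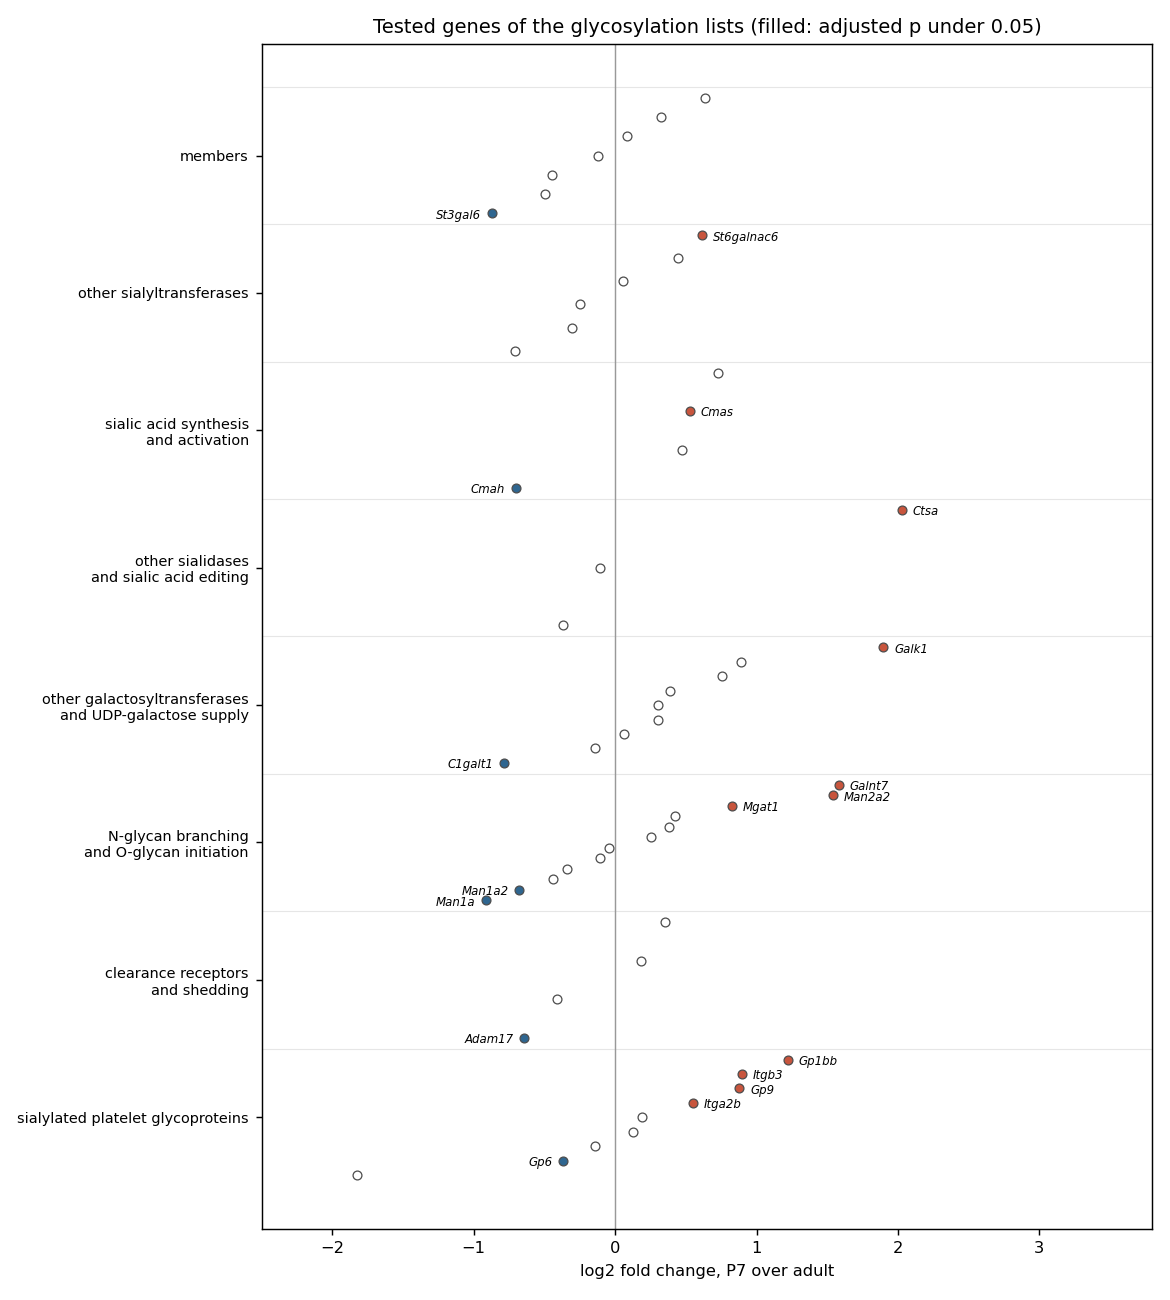
Log2 fold changes, P7 over adult, of the tested genes in the member list and 7 other lists of glycosylation and platelet glycoprotein genes, with 1 point per gene. Filled points passed edgeR's quasi-likelihood test, with Ctsa at 2.03 the farthest to the right, and Man1a at -0.91 and St3gal6 at -0.87 the farthest to the left among those that passed.

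The sialidase partner Ctsa had a larger log2 fold change than any tested member. Ctsa encodes cathepsin A, the protective protein that holds Neu1 and the beta-galactosidase Glb1 in a lysosomal complex. It was at 40.0, 52.3, 81.7, 67.5 and 39.1 CPM in the P7 libraries in letter order, and then at 18.6, 10.4, 12.6, 12.5 and 14.7 CPM in adult A, B, C, G and H. All P7 libraries lay above all adult libraries, and the log2 fold change was 2.03 ± 0.24 (SE, edgeR adjusted p = 4.15e-05). It passed in each of the 20 other settings, at 1.78 to 2.15 (adjusted p = 6.49e-14 to 0.00808 over the tools run). The summed neutrophil and B cell markers given above were also higher in all P7 than in all adult libraries. Mmp8, the 1 neutrophil gene tested, did not pass (log2 fold change 0.49, edgeR adjusted p = 0.40). Ighm, the 1 B cell gene tested, was called higher (1.47, edgeR adjusted p = 0.00353). Lyz2, 1 of 2 tested monocyte genes, was called lower (-0.66, edgeR adjusted p = 0.014). So was Nkg7, 1 of 3 tested T and NK cell genes (-1.38, edgeR adjusted p = 0.00465). Of 10 tested erythroid markers 3 were called higher and 0 lower, where 13.8% of all genes tested were called higher. The erythroid sums overlapped, and Hba-a1, the erythroid marker with the highest mean, did not pass (log2 fold change 0.72, edgeR adjusted p = 0.20). Fech, which encodes the last enzyme of heme synthesis, was called, at 69.1 to 138.4 CPM at P7 and 17.2 to 33.3 CPM in adults (log2 fold change 2.04, edgeR adjusted p = 4.26e-05). The part of other cells in the increase of Ctsa and the other increases was not tested. Of the other partners, Glb1 had a log2 fold change of 0.31 ± 0.19 (SE, edgeR adjusted p = 0.25) and Neu1 the value given above. In the same list 1 of 3 tested genes was called, 33.3% against 27.7% of all genes tested. The sialic acid esterase gene Siae was at -0.11 ± 0.14 (SE, edgeR adjusted p = 0.62), and Neu2 and Neu4 had 0 counts in each library.

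In the synthesis of sialic acid 1 gene was higher and 1 lower of 4 tested, 50% called against 27.7% of all genes tested. Cmas, which makes CMP-sialic acid, the donor that Slc35a1 carries, was the most abundant gene of this list. Its level was 490.5 ± 63.8 CPM at P7 and 339.5 ± 44.5 CPM in adult libraries (SD, n = 5 each), with P7 libraries at 396.9 to 553.3 and adult libraries at 293.5 to 388.0 CPM. The groups did not overlap, and the log2 value of Cmas rose by 0.53 ± 0.14 (SE, edgeR adjusted p = 0.0110). It lost its call only in the 6 libraries of letters A to C with the letter as a block (0.51, edgeR adjusted p = 0.0865). Cmah, the hydroxylase that turns the acetyl form of CMP-sialic acid into the glycolyl form, was at 64.9 to 81.3 CPM at P7 and 88.2 to 183.3 CPM in adults, again with no overlap. Its log2 fold change was -0.70 ± 0.20 (SE, edgeR adjusted p = 0.0176), and with the GC trend removed it was -0.40 and did not pass (edgeR adjusted p = 0.16). Gne, the enzyme of the first committed step, was rare, at 0.619 ± 0.333 CPM at P7 and 0.449 ± 0.328 CPM in adult libraries (SD, n = 5 each), and did not pass (log2 fold change 0.47 ± 0.70, edgeR adjusted p = 0.65).

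Among 6 other sialyltransferase genes tested, 1 was called, 16.7% against 27.7% of all genes tested. St6galnac6, which acts on gangliosides and on GalNAc-linked chains, was at 8.41 ± 0.831 CPM at P7 and 5.50 ± 1.31 CPM in adult libraries (SD, n = 5 each), a log2 fold change of 0.61 ± 0.21 (SE, edgeR adjusted p = 0.0436). Its call was lost in 11 of 20 other settings, among them without adult A, B or C or without any P7 library, at 0.54 to 0.65, and with the GC trend removed, at 0.27. St3gal5, the enzyme that makes the ganglioside GM3, had a level of 75.6 ± 5.01 CPM at P7 and 55.5 ± 33.5 CPM in adult libraries (SD, n = 5 each) and did not pass (log2 fold change 0.45 ± 0.34, edgeR adjusted p = 0.37).

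UDP-galactose is the donor that B4galt1 uses. Galk1, which encodes galactokinase, the enzyme that starts the use of galactose for its supply, rose by 1.90 ± 0.34 (SE, edgeR adjusted p = 0.000982), from 1.93 ± 0.829 CPM in adults to 7.21 ± 2.35 CPM at P7 (SD, n = 5 each). The groups did not overlap, and the call held in each of the 20 other settings, at 1.45 to 2.04. C1galt1, which adds galactose to O-glycans and so makes an acceptor of St3gal1, was lower, at 37.5 ± 8.55 CPM at P7 and 64.8 ± 10.1 CPM in adult libraries (SD, n = 5 each). Its log2 fold change was -0.79 ± 0.19 (SE, edgeR adjusted p = 0.00647), and with the GC trend removed it was -0.42 and did not pass (edgeR adjusted p = 0.0832). The list had 1 higher and 1 lower of 9 tested, 22.2% called against 27.7% of all genes tested.

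Genes that trim or branch N-glycans or start O-glycans had 3 higher and 2 lower of 12 tested. That is 41.7% called, against 27.7% of all genes tested. Man1a, a Golgi mannosidase that trims N-glycans early, was at 106.2 to 135.9 CPM at P7 and 177.2 to 259.5 CPM in adults. Its log2 level fell by 0.91 ± 0.14 (SE, edgeR adjusted p = 0.000393) and passed in each of the 20 other settings. Man2a2, a later Golgi mannosidase, rose by 1.54 ± 0.29 and Galnt7, which extends O-GalNAc glycosylation, rose by 1.58 ± 0.30 (SE, edgeR adjusted p = 0.00129 and 0.00133), and both passed in each of the 20 other settings. Mgat1, which starts complex N-glycans, rose by 0.83 ± 0.26, and Man1a2, a relative of Man1a, fell by 0.68 ± 0.24 (SE, edgeR adjusted p = 0.0260 and 0.0464). For these last 2 genes the groups overlapped. Mgat1 lost its call without P7 A or C or adult A, B or G, at 0.65 to 0.80, and with the GC trend removed, at 0.50. Man1a2 lost its call in 11 of 20 other settings. Among them were those without P7 A, B, C or E or adult B, G or H, at -0.76 to -0.56, and the GC trend removed, at -0.46.

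Receptors that bind desialylated platelets belong to liver and macrophages, and their transcripts were rare here. Asgr1 and Asgr2, the chains of the Ashwell-Morell receptor, had 12 and 0 counts over the P7 libraries and 28 and 6 over the adult libraries, and neither passed the filter. Mgl2 and Clec4f had 0 counts in each library. Itgb2, the beta chain of the leukocyte integrins, was abundant at 1577 ± 382.8 CPM at P7 and 1237 ± 371.2 CPM in adult libraries (SD, n = 5 each) and did not pass (log2 fold change 0.35 ± 0.21, edgeR adjusted p = 0.25). The integrin alpha chain gene Itgam of the same list had 4 counts over the P7 libraries and 2 over the adult libraries, and did not pass the filter. Of 4 genes tested in this list 1 was called, 25% against 27.7% of all genes tested. Adam17, the protease that sheds the von Willebrand factor receptor from platelets, was at 7.03 to 11.8 CPM at P7 and 12.4 to 18.1 CPM in adults, and its log2 level fell by 0.64 ± 0.20 (SE, edgeR adjusted p = 0.0252). Adam17 lost its call in 7 of 20 other settings. Among them were those without P7 A or adult A or B, at -0.62 to -0.59, and the GC trend removed, at -0.52. Adam17 shares 311 exon bases with Iah1 on the other strand, a gene with 3420 counts at P7 and 3653 in adults.

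In the list of sialylated platelet glycoprotein genes, 4 were higher and 1 lower of 9 tested. That is 55.6% called, against 27.7% of all genes tested, and the list was not tested as a set. Gp9 and Gp1bb, which encode subunits of the GPIb-IX-V complex, rose by 0.88 ± 0.14 and 1.22 ± 0.24 (SE, edgeR adjusted p = 0.000443 and 0.00172). Gp1bb can share reads with neighbouring gene models on the same strand and is uncertain. Gp1ba, which encodes the heavily sialylated chain of this complex, had a log2 fold change of 0.13 ± 0.16 (SE, edgeR adjusted p = 0.60). The integrin chains Itgb3 and Itga2b rose by 0.90 ± 0.23 and 0.55 ± 0.15 (SE, edgeR adjusted p = 0.00966 and 0.0121), with groups that overlapped, and the collagen receptor gene Gp6 fell by 0.37 ± 0.11 (SE, edgeR adjusted p = 0.0254). With the GC trend removed Itga2b was at 0.18 and Gp6 at -0.15, and neither passed. In that setting Gp9, Gp1bb and Itgb3 still passed, at smaller values of 0.52, 0.77 and 0.74 (edgeR adjusted p = 0.0120, 0.0268 and 0.0249). Gp6 lost its call in 8 of 20 other settings, among them without P7 C or E or adult A, at -0.37 to -0.35. Gp1bb lost its call with the letters A to C as a block, at 1.2.

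**Figure D5:**
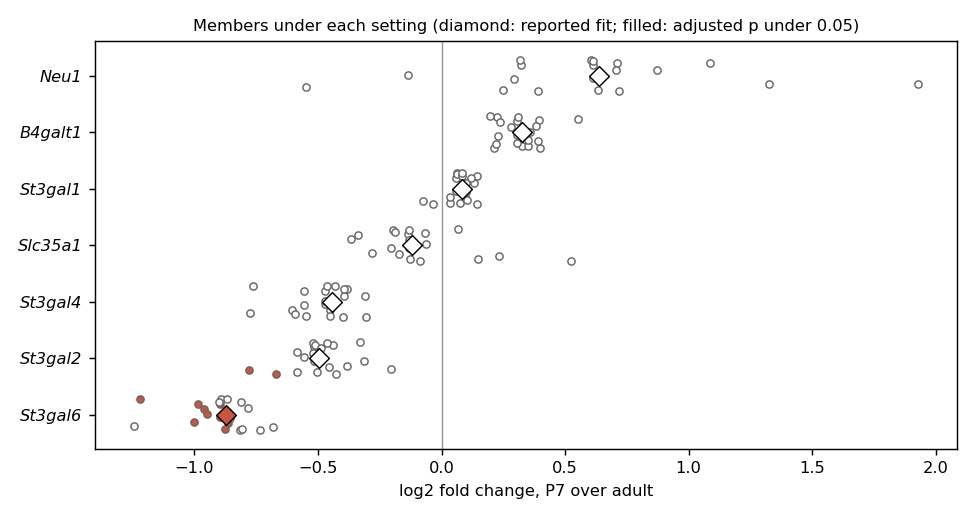
Log2 fold changes of the 7 tested members, P7 over adult, in the reported fit (diamonds) and in each other setting (circles), filled where the adjusted p was under 0.05 and spread vertically only for legibility. St3gal6 stays below 0 in each setting, between -1.24 and -0.68, and Neu1 spans -0.55 to 1.93.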

How the data were processed

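The deposited values are raw read counts per gene symbol, 1 table per library, with no normalization by the authors seen in them. Per the labels' protocols, 1 ng of Trizol-isolated RNA was amplified with SMARTer chemistry, Nextera XT libraries were made from 150 pg of cDNA, and 75 nt were read from 1 end. Amplified reads without molecular identifiers are not independent molecules. The tools were Salmon 1.5.2, Subread 2.0.1, featureCounts, STAR 2.7.9a and fastp 0.23.1, per the submitters' processing notes, which state no role for them here. The build, annotation and strand setting were not given in the sources used here, and coordinates are left out.

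Genes were filtered with filterByExpr (minimum count 10, minimum total 15). Counts were scaled by TMM and tested with edgeR 4.0.16 (limma 3.58.1, R 4.3.3), quasi-likelihood with robust dispersions and a single term for age, with Benjamini-Hochberg adjustment over 8198 genes. SE is the log2 fold change divided by the root of F. CPM divides by the counts of tested genes times the TMM factor. Lengths and GC content of the longest coding transcript came from GENCODE M21 (97.9% of tested genes matched by symbol). Alternatives were RLE, upper quartile and no factors, DESeq2 1.42.0, limma-voom, no filter, 1 CPM in 5 libraries, each library left out, letters A to C with and without a block, and, chosen after seeing the data, GC offsets and transcript length.

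Named genes were the 9 members and, from each other list, up to 5 called genes by smallest p (6 in lists of over 15). Members and lists were chosen with earlier results of these data known. Of the pathway lists as first written, 1 gene was left out of the lists and their counts and is not reported here.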

Additional observations from a re-analysis of the deposited data

Results flagged for a closer look

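In a group of 5 libraries, a single library was set far apart from the other 4 in 7 of 52 gene and group pairs (the gap to its nearest neighbour over 0.71 of the group's range), where the criterion by itself sets apart about 1 in 20 groups by chance. Both Neu3 pairs pass it by construction, since 1 library held all counts, so the count is not read against that share. Among the members, Slc35a1 in adult G stood at 1.33 CPM against 0.172 to 0.439 CPM in the other adult libraries, and the log2 fold change changes sign without it. Counts in single libraries account for Neu3 in P7 E at 0.200 CPM and in adult C at 0.0975 CPM, where the other libraries of the group had 0, and for St6gal1 in P7 C at 0.201 CPM. These are levels of 2 to 5 counts.

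Among the other pathway genes, C1galt1 in adult B reached 82.7 CPM against 58.9 to 61.1 CPM in the other adult libraries, which lies farther from the P7 values. Gp1bb in adult A was at 25.3 CPM against 12.1 to 14.3 CPM, and Itga2b in adult A at 22350 CPM against 16760 to 18190 CPM, both toward the P7 values.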

How the results depend on the processing

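Of the 7 tested members, St3gal4 and B4galt1 kept direction and lack of a call in each of 20 settings, while Neu1 and Slc35a1 (without a value under the 1 CPM filter) and St3gal1 changed sign in some, never with a call. Members called lower went from 1 to 0 with library size only, upper quartile factors, no filter and the replicate block, and was 0 to 1 with libraries left out. St3gal6 did not pass with library size only (-0.82), upper quartile factors (-0.81), no filter (-0.89), the replicate block (-1.24) or the GC trend removed (-0.68), and left-out libraries gave -1.0 to -0.73. St3gal2 passed with the GC trend removed (-0.78) and without adult C (-0.67), and did not pass in the other 18 settings. It was at -0.21 with the replicate block, and left-out libraries gave -0.67 to -0.31. St3gal1 was at -0.0761 with the GC trend removed and at -0.0353 to 0.13 with libraries left out. Neu1 was at -0.13 with the replicate block and -0.55 in the same 6 libraries without it. Slc35a1 was at 0.23 in these 6 without the block, 0.0679 with the GC trend removed and -0.37 to 0.52 with libraries left out.

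Of 17 other named genes, 7 kept their call in each setting, 10 lost it in at least 1, and 0 reversed. With library size only, Man1a2, Adam17 and Gp6 did not pass. Other pathway genes called lower numbered 6, and 3 with library size only or the replicate block and 1 with the GC trend removed. All genes called numbered 660 higher and 756 lower with the replicate block on letters A to C against 1132 and 1140. The letters were not taken as pairs, since nothing in the labels says that they pair libraries. Same-lettered libraries did not deviate together (correlations of -0.0446, 0.0732 and 0.000134, none the best match). The causes of these changes were not tested. Library size and upper quartile scaling moved the median of all genes to 0.11. Counts of at most 31 in a library limit Neu1, Neu3, Slc35a1 and St6gal1.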
